A study of Homo sapiens with 6 samples.

Results

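The genes described here encode the proteins that license replication origins and copy DNA in S phase. They are 55 genes chosen by symbol, with earlier results of these data known. They come from origin recognition, the MCM helicase, GINS, the polymerases, the sliding clamp and its loader, nucleotide supply and the kinases of the G1/S transition with their regulators. All 55 were found among the 60240 Ensembl genes of the deposited table, and all 55 passed the filter on low values, as did 18723 genes in all. HepG2, a human hepatocellular carcinoma line, was measured by RNA sequencing in 2 groups of 3 libraries. GDF11 libraries came from cells given 100 ng/ml of recombinant GDF11, a secreted ligand of the TGF-beta family, for 24 h. Control libraries came from cells labelled as control. Both groups grew in high-glucose medium with serum. The labels give no genotype and no other agent that separates the groups, every library is from this 1 tumour line, and the labels call the replicates biological.

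In G1 the origin recognition complex, with CDC6 and CDT1, loads the ring of MCM2 to MCM7 onto DNA. Kinases then turn the loaded ring into an active helicase together with CDC45 and GINS, and polymerases, clamp and ligase follow on the unwound strands. Many genes of this machinery are transcribed at the G1/S transition under E2F factors, and TGF-beta ligands are known to hold many epithelial cells in G1.

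RNA of 41 of the 55 replication and S-phase genes was lower in GDF11-treated cells, that of 0 was higher and 14 were not called. The median log2 difference over the 55 was -0.79, and over all tested genes it was 0.01. Differences were tested with limma over all 18723 genes, two-sided, and a gene was called at a Benjamini-Hochberg adjusted p under 0.05. At an unadjusted p under 0.05, 48 members were lower and 0 higher, but the share of all tested genes at that looser cut was not counted. At the adjusted threshold 10.8% of all tested genes were called lower and 11.7% higher, 22.4% in either direction. The 3 GDF11 values lay wholly below the 3 control values for 46 members, which for all tested genes held for 19.6%, and above them for 1 member, against 20.9%. Fewer cells in S phase and less of these RNAs per cell cannot be told apart in RNA from whole cultures.

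**Figure D1:**
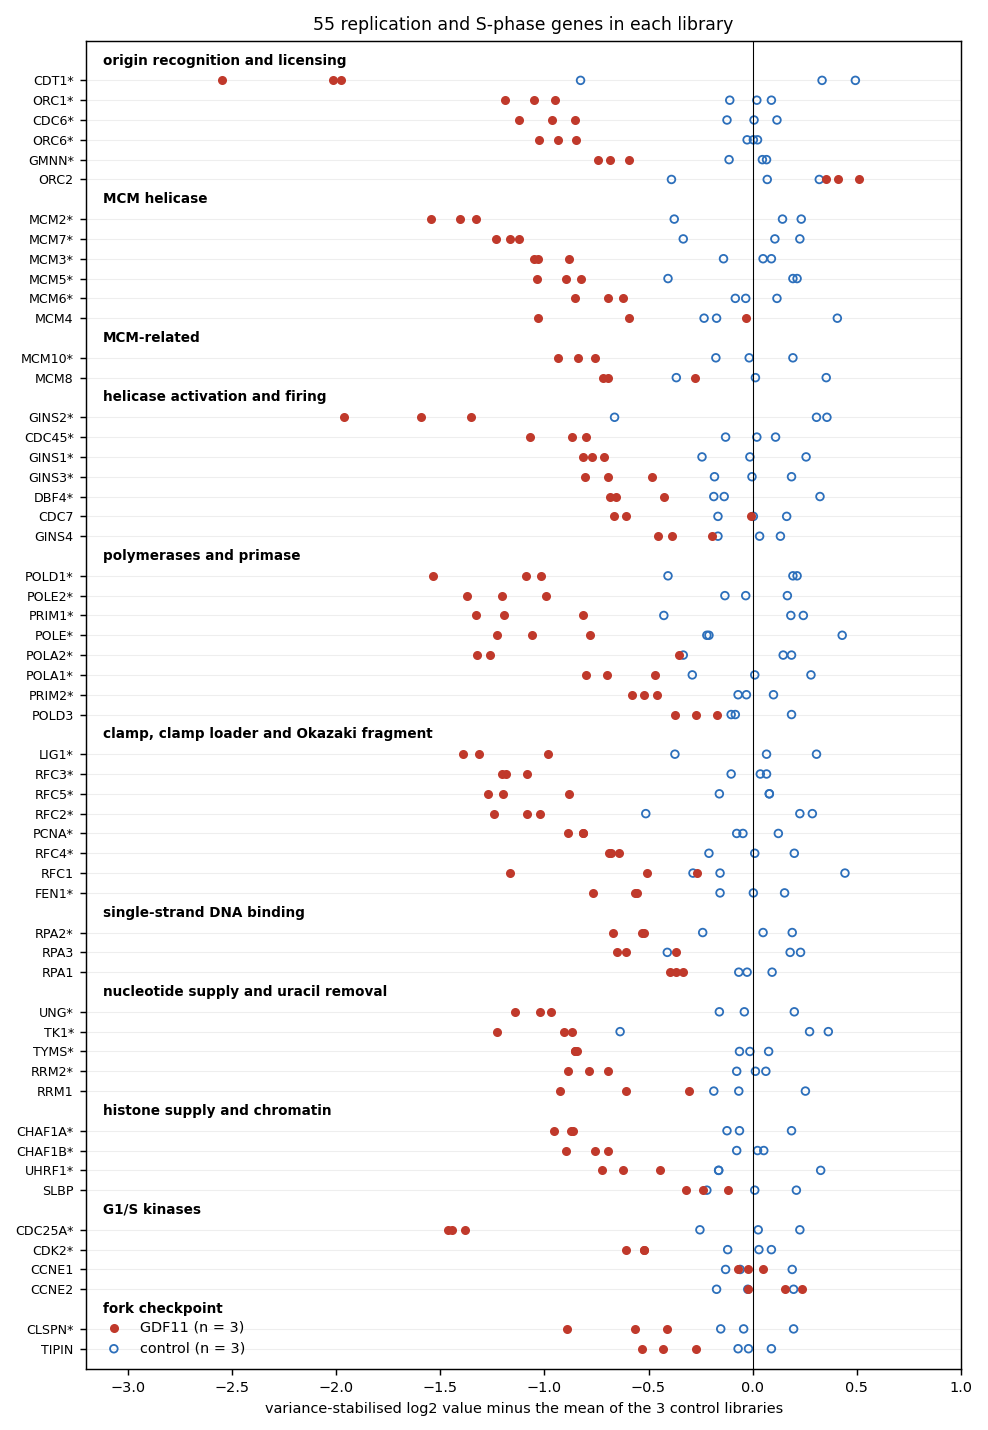
Values of the 55 replication and S-phase genes by library, with genes grouped by role down the page. The horizontal axis is the variance-stabilised log2 value minus the mean of the 3 control libraries of that gene; filled points are GDF11 libraries, open points are control libraries, and an asterisk marks the 41 genes called lower. GDF11 points lie left of the control points for 46 genes, CDT1 is farthest to the left, and ORC2 lies to the right.

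Values are variance-stabilised log2 values as the authors deposited them, with 5.52 as the lowest. Estimated depth was 47945704 to 53373813 reads per library, and normalised reads summed to 47137879, 48508290 and 44621162 in GDF11 replicates 1, 2 and 3, against 55405015, 59440376 and 46103008 in control replicates 1, 2 and 3. Member means with GDF11 were 7.38 or more, and the scale shrinks differences of low genes, passing on 0.70 of a log2 change near a value of 8, 0.91 near 10 and 0.98 near 12. RNA integrity numbers (RIN) were 9.6, 9.5 and 9.4 in GDF11 replicates 1, 2 and 3, against 9.8, 9.9 and 9.6 in control replicates 1, 2 and 3. With RIN in the fit 28 members were called lower, 27 of them among the 41, and 3.85% of all tested genes. RIN was no higher in any GDF11 library than in any control, so RIN and treatment cannot be fully told apart in that fit. Whether calls lost there reflect RNA quality was not tested. On reads scaled to equal library sums 26 members were called lower, all among the 41, and 7.19% of all tested genes. The median of the members was -0.61 there, while that of all tested genes moved to 0.20. The median deviation of the members from their 6-library mean was -0.35, -0.43 and -0.38 for the GDF11 libraries, against 0.36, 0.34 and 0.38 for the controls. Control replicate 3 stands apart over many genes: without it 21.3% of tested genes were called lower and 19.6% higher, and of the members 43 were called lower and 1, ORC2, higher.

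Hepatocyte markers were present and 7 of 11 were lower, with summed normalised reads of 1336158 to 1492474 in GDF11 libraries and 1713188 to 2318242 in controls. Of 12 markers of other cell types, PTPRC, CD3E and HBB stood at the lowest value in every library. LYZ, for lysozyme, and HBA1, an alpha globin gene, were the 2 of the 12 called, and both were lower (-1.19 ± 0.16 and -1.90 ± 0.27). The 12 summed to 32345 to 34180 reads with GDF11 and 68933 to 80525 in controls, of which 2655 to 3156 and 2609 to 4227 came from genes other than LYZ. HBA1 was not called with RIN in the fit (-1.27). The part of these markers in the result on replication genes was not tested.

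Letters of E2F-type sites were more frequent in the promoters of these genes than in those of all genes. The choice of genes did not use sequence. Many genes of this machinery are under E2F factors, however, so the excess goes with the choice and says nothing about GDF11. RefSeq windows of 300 bases, 250 before a start site and 50 from it on, were at hand for 47 members. Those not held were MCM4, MCM5, GINS4, POLD3, RPA2, RPA3, CCNE2 and CDK2. For CDC45, ORC1, PRIM2, RRM2 and UHRF1 that start site is not the outermost start of the annotated gene. An E2F-type octamer (TTTCCCGC, TTTGGCGC or TTTCGCGC, either strand) was in 21 of 47 windows (44.7%), against 2.8% of 27305 windows of all genes and 4.3% of 12137 windows of tested genes. It was in 20 of 38 windows of members called lower and 1 of 9 of those not called, MCM8. The median log2 difference was -0.98 in members with the octamer and -0.73 in those without. Neither contrast was tested. CCAAT, in either strand, was in 57.4% of the 47, in 35.7% of all windows and in 36.4% of windows of tested genes. The hexamers TTTGAA or TTCGAA are the core of a cell cycle element of mitotic genes. They were in 3 of the 47 (6.4%), against 16.6% of all windows and 11.7% of windows of tested genes. A match is a description of letters and not a binding site. The windows below are those of the 3 called members with the lowest adjusted p that hold the octamer, printed 5′ to 3′ from RefSeq with the octamer in capitals; in MCM2 it is present on each strand as overlapping matches just after the gene start, in CDC25A and RFC3 it lies upstream.
CDC25A (GRCh38.p14, chr3:48188368-48188667, minus strand): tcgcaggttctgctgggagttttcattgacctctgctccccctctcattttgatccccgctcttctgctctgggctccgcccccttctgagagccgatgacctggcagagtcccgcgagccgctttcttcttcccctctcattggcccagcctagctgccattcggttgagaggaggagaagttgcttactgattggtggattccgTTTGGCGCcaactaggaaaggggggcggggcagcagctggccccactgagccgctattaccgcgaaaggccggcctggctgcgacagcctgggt
RFC3 (GRCh38.p14, chr13:33817899-33818198, plus strand): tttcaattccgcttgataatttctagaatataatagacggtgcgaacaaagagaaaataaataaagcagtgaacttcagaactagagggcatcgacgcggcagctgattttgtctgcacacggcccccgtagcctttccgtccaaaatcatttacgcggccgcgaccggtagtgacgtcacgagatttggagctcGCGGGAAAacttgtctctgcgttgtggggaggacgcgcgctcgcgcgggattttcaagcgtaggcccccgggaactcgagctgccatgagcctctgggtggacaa
MCM2 (GRCh38.p14, chr3:127598161-127598460, plus strand): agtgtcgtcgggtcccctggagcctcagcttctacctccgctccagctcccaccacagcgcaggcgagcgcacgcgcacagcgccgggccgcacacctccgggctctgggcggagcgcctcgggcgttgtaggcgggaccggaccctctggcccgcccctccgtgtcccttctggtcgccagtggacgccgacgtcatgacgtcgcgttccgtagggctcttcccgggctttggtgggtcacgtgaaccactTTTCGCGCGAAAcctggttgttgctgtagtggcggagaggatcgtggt

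Origin recognition and licensing genes among the 55 were lower in 5 of 6 cases, with a median log2 difference of -0.96. CDT1, which brings the MCM ring to origins, had the largest decrease of the 55. CDT1 (ENSG00000167513, chromosome 16, 88803789 to 88809258 of GRCh38) stood at 10.98, 11.02 and 10.45 in GDF11 libraries, against 13.33, 13.49 and 12.17 in controls. The groups did not overlap, and control replicate 3 and GDF11 replicate 3 were each the lowest of their group. CDT1 fell by 2.18 ± 0.33 (log2 difference ± SE, 3 against 3, adjusted p = 0.00204), which left 0.20 of the control reads. The difference was -2.59 without control replicate 3 and -1.12 with RIN in the fit, and remained called in each.

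CDC6, the ATPase that works with CDT1 in loading, stood at 10.63, 10.47 and 10.74 in GDF11 libraries, against 11.60, 11.47 and 11.71 in controls. ORC1, the subunit of the origin recognition complex whose level cycles, stood at 9.50, 9.60 and 9.36 in GDF11 libraries, against 10.44, 10.64 and 10.57 in controls. ORC6, the smallest subunit, stood at 10.14, 10.05 and 10.23 in GDF11 libraries, against 11.10, 11.08 and 11.05 in controls. In each of the 3 genes every GDF11 library was below every control, and the spread within a group was small beside the gap. CDC6 fell by 0.98 ± 0.15 (adjusted p = 0.00203), ORC1 fell by 1.07 ± 0.15 (adjusted p = 0.00118) and ORC6 fell by 0.94 ± 0.14 (adjusted p = 0.00160). GMNN, which encodes geminin, the inhibitor of CDT1, fell by 0.67 ± 0.14 to 61.5% of the control reads (adjusted p = 0.00911), but lost its call at -0.64 without GDF11 replicate 1 and at -0.51 on reads scaled to equal library sums. ORC1 overlaps PRPF38A in the RefSeq annotation, and no source used here states whether counting used strand; PRPF38A itself was not called (-0.60, adjusted p = 0.0632).

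ORC2, a core subunit of the origin complex, went the other way from ORC1 and ORC6 in its values without being called. It stood at 11.57, 11.63 and 11.73 in GDF11 libraries, against 11.29, 10.83 and 11.54 in controls, and all 3 GDF11 values were above all 3 controls. Its difference was 0.42 ± 0.19 (adjusted p = 0.145; 95% interval -0.01 to 0.86). It was called higher without control replicate 3 (0.58), with library weights (0.38) and with GC and length trends taken out and control replicate 3 dropped (0.40), and stood at -0.05 with RIN in the fit. The remaining subunits, ORC3, ORC4 and ORC5, are outside the 55 genes. ORC3 fell by 0.54 ± 0.14 (adjusted p = 0.0233). ORC4 (-0.23 ± 0.17, adjusted p = 0.372) and ORC5 (-0.17 ± 0.18, adjusted p = 0.526) were not called, and their groups overlapped. These subunits were not followed over the other settings.

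The ring subunits MCM2 to MCM7, which form the core of the replicative helicase, were lower in 5 of 6 cases with a median log2 difference of -0.95. MCM2 (chromosome 3, 127598411 to 127622436 of GRCh38) stood at 12.40, 12.32 and 12.18 in GDF11 libraries, against 13.87, 13.96 and 13.35 in controls. MCM7 stood at 12.58, 12.54 and 12.47 in GDF11 libraries, against 13.81, 13.93 and 13.37 in controls. MCM5 stood at 12.89, 12.82 and 12.68 in GDF11 libraries, against 13.91, 13.93 and 13.31 in controls. In these 3 subunits control replicate 3 was the lowest control and still above every GDF11 library. MCM2 fell by 1.43 ± 0.19 to 36.2% of the control reads (adjusted p = 0.00100), MCM7 fell by 1.17 ± 0.18 to 43.4% (adjusted p = 0.00195) and MCM5 fell by 0.91 ± 0.20 to 51.8% (adjusted p = 0.0112).

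MCM3 stood at 13.08, 12.91 and 12.93 in GDF11 libraries, against 13.82, 14.05 and 14.01 in controls. MCM6 stood at 10.50, 10.34 and 10.57 in GDF11 libraries, against 11.16, 11.11 and 11.31 in controls. Control replicate 3 was not low in either gene, and the groups did not overlap. MCM3 fell by 0.99 ± 0.15 (adjusted p = 0.00190) and MCM6 fell by 0.72 ± 0.14 (adjusted p = 0.00813). With RIN in the fit MCM2 stood at -0.95 and MCM7 at -0.78, both called, while the call of MCM5 ended at -0.42, as it did at -0.85 without GDF11 replicate 3 and at -0.82 without control replicate 1. The call of MCM6 ended at -0.65 without GDF11 replicate 2 and at -0.57 on reads scaled to equal library sums. MCM7 overlaps AP4M1 by 604 bases, and AP4M1 was not called (0.11, adjusted p = 0.764).

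MCM4 was the subunit that was not called. It stood at 12.65, 11.65 and 12.09 in GDF11 libraries, against 12.51, 12.45 and 13.09 in controls, and GDF11 replicate 1 lay within the control range. Its difference was -0.55 ± 0.27 (adjusted p = 0.172; 95% interval -1.17 to 0.06), an interval that holds the values of MCM3, MCM5 and MCM6, so that no departure from these subunits is shown. MCM10, which joins the helicase at activation, fell by 0.84 ± 0.15 (adjusted p = 0.00541), and lost its call at -0.76 on reads scaled to equal library sums. MCM8, which acts in homologous recombination and not in the ring, was not called at -0.56 ± 0.22 (adjusted p = 0.0929), but was called lower without control replicate 2 (-0.75), with library weights (-0.61), with RIN in the fit (-1.17) and with GC and length trends taken out, in all libraries (-0.76) or with control replicate 3 dropped (-0.70).

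**Figure D2:**
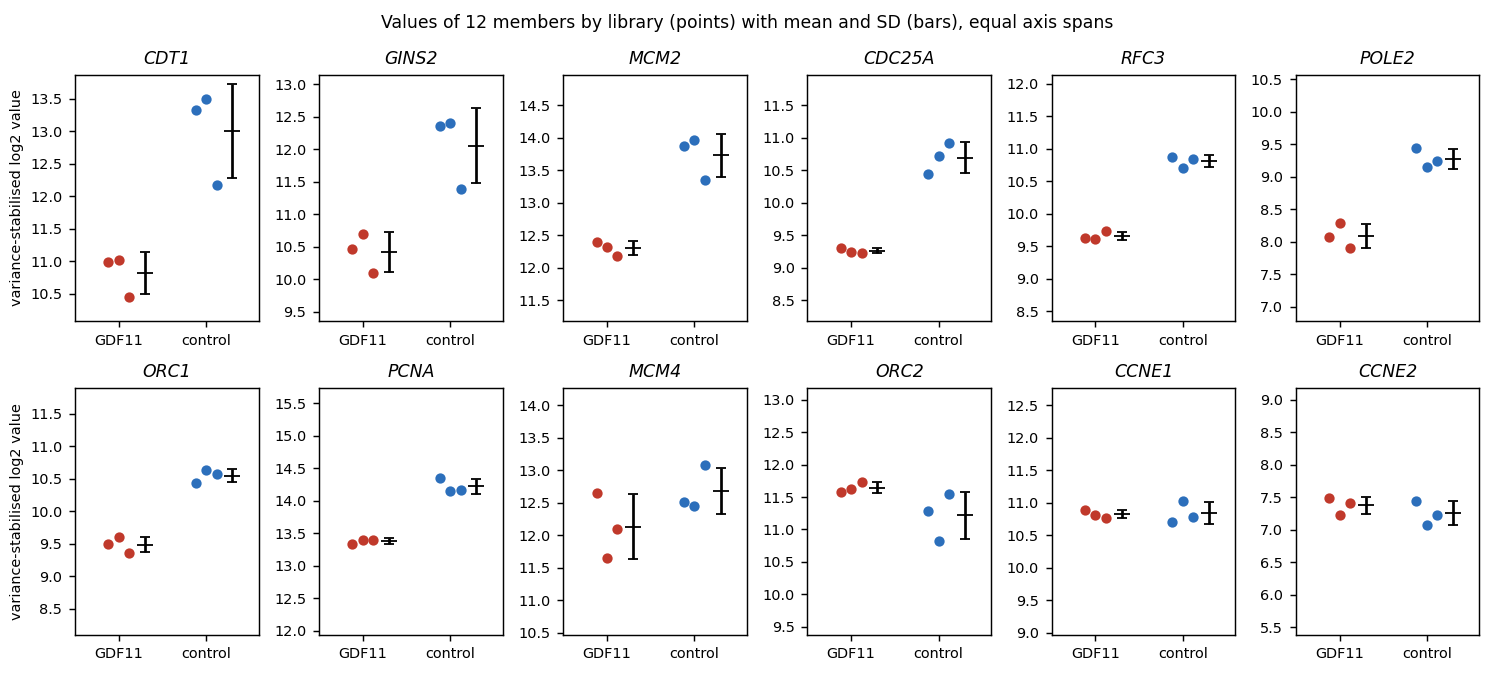
Variance-stabilised log2 values of 12 members by library, in panels with equal axis spans; red points are the 3 GDF11 libraries, blue points the 3 control libraries, and black bars the mean and SD. The first 8 panels are genes called lower, from CDT1 to PCNA, and the last 4 (MCM4, ORC2, CCNE1 and CCNE2) were not called.

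For the step from loaded ring to active helicase, 5 of 7 genes were lower, with a median of -0.66. GINS2, a subunit of the GINS complex that binds CDC45 and the ring, stood at 10.46, 10.70 and 10.09 in GDF11 libraries, against 12.36, 12.41 and 11.39 in controls. Control replicate 3 was the lowest control by a wide margin, yet the groups did not overlap. GINS2 fell by 1.64 ± 0.28 to 29.6% of the control reads (adjusted p = 0.00404), and stood at -1.97 without control replicate 3; the call ended at -0.82 with RIN in the fit. CDC45, the remaining helicase cofactor, stood at 9.34, 9.27 and 9.07 in GDF11 libraries, against 10.16, 10.25 and 10.01 in controls. CDC45 fell by 0.92 ± 0.15 (adjusted p = 0.00309), and its call ended at -0.66 with RIN in the fit.

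GINS1 fell by 0.77 ± 0.16 and GINS3 fell by 0.66 ± 0.16, whereas GINS4 was not called at -0.35 ± 0.15 (adjusted p = 0.134), though its 3 GDF11 values were below the controls and it was called lower with GC and length trends taken out (-0.46). DBF4, the activating subunit of the kinase that fires origins, fell by 0.59 ± 0.18 (adjusted p = 0.0452), with a value close to the threshold. CDC7, the catalytic subunit of that kinase, stood at 7.92, 7.98 and 8.58 in GDF11 libraries, against 8.59, 8.42 and 8.75 in controls, and was not called (-0.43 ± 0.20, adjusted p = 0.159). GDF11 replicate 3 lay within the control range for CDC7, which was called lower with library weights (-0.53) and with GC and length trends taken out (-0.48). The call of GINS1 ended at -0.76 without GDF11 replicate 1. That of GINS3 ended at -0.59 without GDF11 replicate 2, -0.65 without GDF11 replicate 3, -0.57 without control replicate 2 and -0.50 with RIN in the fit. That of DBF4 ended at -0.54, -0.56 and -0.67 without GDF11 replicate 1, 2 or 3, at -0.68 without control replicate 1, at -0.66 without control replicate 2 and at -0.59 under the most lenient filter, which kept every gene above the lowest value in at least 1 library. On reads scaled to equal library sums GINS1 (-0.61), GINS3 (-0.56) and DBF4 (-0.49) were not called.

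DNA polymerase and primase genes were lower in 7 of 8 cases, with all 8 differences between -1.22 and -0.27. POLE2, the second subunit of the leading-strand polymerase epsilon, stood at 8.07, 8.28 and 7.90 in GDF11 libraries, against 9.44, 9.14 and 9.24 in controls. POLE, its catalytic subunit, stood at 11.16, 10.88 and 10.71 in GDF11 libraries, against 11.72, 12.37 and 11.73 in controls. POLD1, the catalytic subunit of the lagging-strand polymerase delta, stood at 10.97, 11.04 and 10.52 in GDF11 libraries, against 12.25, 12.27 and 11.65 in controls. No library of 1 group reached the other group in these 3 genes. POLE2 fell to 35.3% of the control reads (adjusted p = 0.00116), POLD1 fell by 1.22 ± 0.22 (adjusted p = 0.00480) and POLE fell by 1.02 ± 0.21 (adjusted p = 0.00953). POLE2 remained called with RIN in the fit (-1.15), while there the calls of POLD1 (-0.63) and POLE (-0.51) ended.

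PRIM1, the primase subunit that makes the RNA primer, stood at 9.42, 8.91 and 9.04 in GDF11 libraries, against 10.42, 9.81 and 10.48 in controls, and fell by 1.11 ± 0.22 (adjusted p = 0.00775). Its partner PRIM2 fell by 0.52 ± 0.14 (adjusted p = 0.0268). POLA1, the catalytic subunit of polymerase alpha, fell by 0.66 ± 0.18 (adjusted p = 0.0331), and the regulatory subunit POLA2 fell by 0.98 ± 0.27 (adjusted p = 0.0326). For POLA2, GDF11 replicate 1 at 9.24 came close to control replicate 1 at 9.26, with the other GDF11 libraries at 8.27 and 8.33. POLD3, an accessory subunit of polymerase delta, was not called at -0.27 ± 0.15 (adjusted p = 0.220; 95% interval -0.62 to 0.07), but was called lower with GC and length trends taken out, in all libraries (-0.37) or with control replicate 3 dropped (-0.35). Calls of 3 of these genes ended when single libraries were left out: POLA1 at -0.64, -0.59 and -0.75 without GDF11 replicate 1, 2 or 3 and -0.65 without control replicate 1; PRIM2 at -0.52, -0.55 and -0.49 without GDF11 replicate 1, 2 or 3 and -0.47 without control replicate 1; and POLA2 at -0.81 and -0.84 without GDF11 replicate 2 or 3 and -0.90 without control replicate 2. With RIN in the fit POLA1 stood at -1.09 and stayed called, whereas POLA2 (-0.71) and PRIM2 (-0.50) were not called; on reads scaled to equal library sums POLA1 (-0.52), POLA2 (-0.98) and PRIM2 (-0.36) were not called, nor was POLA2 with library weights (-0.54).

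Among clamp, clamp loader and Okazaki fragment genes 7 of 8 were lower, with a median of -0.98. PCNA, the sliding clamp that tethers polymerases, had 10202, 10719 and 10701 normalised reads with GDF11 and 20642, 17974 and 18313 in controls. RFC3, a small subunit of the clamp loader, had 701, 694 and 760 normalised reads with GDF11 and 1793, 1581 and 1750 in controls. LIG1, the ligase that seals Okazaki fragments, had 2173, 1613 and 1703 normalised reads with GDF11 and 4566, 5434 and 3364 in controls. Each of the 3 was lower in every GDF11 library than in any control, with PCNA and RFC3 the tightest. PCNA fell by 0.84 ± 0.14 to 55.5% of the control reads (adjusted p = 0.00377), RFC3 fell by 1.15 ± 0.14 to 42.0% (adjusted p = 0.000559) and LIG1 fell by 1.23 ± 0.20 to 41.1% (adjusted p = 0.00327). LIG1 was not called with RIN in the fit (-0.67).

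Of the other loader subunits, RFC2 fell by 1.12 ± 0.22, RFC5 fell by 1.12 ± 0.16 and RFC4 fell by 0.67 ± 0.15. RFC1, the large subunit, stood at 11.25, 10.59 and 11.49 in GDF11 libraries, against 11.60, 11.47 and 12.20 in controls, and was not called (-0.64 ± 0.27, adjusted p = 0.116), with GDF11 replicate 3 inside the control range. It was called lower with GC and length trends taken out, in all libraries (-0.78) or with control replicate 3 dropped (-0.65). FEN1, the flap nuclease that trims Okazaki fragments, fell by 0.63 ± 0.15 (adjusted p = 0.0171). The RFC2 call ended with RIN in the fit (-0.68), that of FEN1 with RIN in the fit (-0.75), without GDF11 replicate 1, 2 or 3 (-0.67, -0.56 and -0.66) and on equal library sums (-0.46), and that of RFC4 without GDF11 replicate 1, 2 or 3 (-0.66, -0.66 and -0.68), without control replicate 1 (-0.66) and on equal library sums (-0.55). RFC5 overlaps WSB2 by 8762 bases; WSB2 itself rose by 0.91 (adjusted p = 0.00247).

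Of the 3 subunits of RPA, which coats single-stranded DNA, 1 was called lower. RPA2 fell by 0.57 ± 0.16 (adjusted p = 0.0313), while RPA1 was at -0.37 ± 0.14 (adjusted p = 0.0837) and RPA3 at -0.55 ± 0.20 (adjusted p = 0.0802), neither called. RPA1 stood at 12.41, 12.38 and 12.44 in GDF11 libraries, against 12.75, 12.87 and 12.71 in controls, so that its groups did not overlap. RPA3 stood at 10.36, 10.60 and 10.32 in GDF11 libraries, against 11.20, 11.15 and 10.56 in controls, and control replicate 3 lay within the GDF11 range. RPA1 and RPA3 were called lower without control replicate 3 (-0.40 and -0.75), with library weights (-0.36 and -0.73) and with GC and length trends taken out and control replicate 3 dropped (-0.66 and -0.75). RPA1 was also called with those trends taken out in all libraries (-0.54). RPA2 lost its call without GDF11 replicate 1, 2 or 3 (-0.59, -0.60 and -0.53), without control replicate 1 or 2 (-0.55 and -0.48), under the most lenient filter (-0.57), with RIN in the fit (-0.26) and on equal library sums (-0.41). RPA3 overlaps UMAD1 over 77856 bases, and UMAD1 was not called (0.01, adjusted p = 0.985).

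Of 4 deoxynucleotide supply genes and the uracil glycosylase gene UNG, 4 of 5 were lower, with a median of -0.85; RRM1 was not called. TYMS, which makes thymidylate, had 5371, 5432 and 5401 normalised reads with GDF11 and 9399, 9690 and 10329 in controls. RRM2, the small subunit of ribonucleotide reductase, had 9040, 8505 and 7941 normalised reads with GDF11 and 15385, 14891 and 13950 in controls. TK1, thymidine kinase of the salvage route, had 5907, 6091 and 4712 normalised reads with GDF11 and 14383, 13536 and 7129 in controls. TYMS and RRM2 varied little within either group, while control replicate 3 of TK1 was closer to the GDF11 libraries than to the other controls. TYMS fell by 0.85 ± 0.14 (adjusted p = 0.00265), RRM2 fell by 0.79 ± 0.14 (adjusted p = 0.00496) and TK1 fell to 47.7% of the control reads (adjusted p = 0.0268).

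The TK1 call depended on the library set. It ended without GDF11 replicate 1, 2 or 3 (-1.05, -1.07 and -0.89), without control replicate 1 or 2 (-0.82 and -0.86) and with RIN in the fit (-0.25), and TK1 stood at -1.32 without control replicate 3. UNG, the glycosylase that removes uracil from new DNA, stood at 11.57, 11.52 and 11.40 in GDF11 libraries, against 12.50, 12.74 and 12.38 in controls, and fell by 1.04 ± 0.15 (adjusted p = 0.00170). RRM1, the large subunit of ribonucleotide reductase, was not called at -0.61 ± 0.20 (adjusted p = 0.0555), with all 3 GDF11 values below the controls; it was called lower with library weights (-0.51), with a filter of 2 above the lowest value (-0.61) and with GC and length trends taken out, in all libraries (-0.66) or with control replicate 3 dropped (-0.59). TYMS overlaps ENOSF1, which was not called (-0.16, adjusted p = 0.637).

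Genes that package new DNA were lower in 3 of 4 cases. CHAF1A and CHAF1B, the large and middle subunits of the histone chaperone that follows the fork, fell by 0.90 ± 0.15 (adjusted p = 0.00293) and 0.79 ± 0.14 (adjusted p = 0.00462). CHAF1A had 979, 1044 and 1037 normalised reads with GDF11 and 1806, 2265 and 1889 in controls, so that the 2 groups were well apart. UHRF1, which brings the maintenance methyltransferase to new DNA, fell by 0.59 ± 0.18 (adjusted p = 0.0431), and its call ended without each library other than control replicate 3 (-0.53 to -0.68), under the most lenient filter (-0.59) and on equal library sums (-0.43). SLBP, which binds the stem loop of replication-dependent histone mRNAs, was not called at -0.23 ± 0.16 (adjusted p = 0.335; 95% interval -0.59 to 0.13). At the fork checkpoint CLSPN, which relays the stalled-fork signal, fell by 0.62 ± 0.18 (adjusted p = 0.0349), and lost its call without GDF11 replicate 1, 2 or 3 (-0.65, -0.49 and -0.73), without control replicate 1 (-0.65) and on equal library sums (-0.51). Its partner TIPIN was not called at -0.41 ± 0.14 (adjusted p = 0.0712), though it was with quantile normalization (-0.49), with library weights (-0.41) and without a trend in the variance prior (-0.41).

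The G1/S kinase gene CDK2 and the genes of its regulators were split, with 2 of 4 called lower. CDC25A, the phosphatase that activates CDK2, had the lowest adjusted p of the 55. CDC25A (chromosome 3, 48157146 to 48188417 of GRCh38) stood at 9.31, 9.25 and 9.23 in GDF11 libraries, against 10.44, 10.72 and 10.92 in controls. The GDF11 libraries were nearly equal and the controls were all more than 1 higher. CDC25A fell by 1.43 ± 0.16 to 33.3% of the control reads (adjusted p = 0.000432). CDK2 itself fell by 0.55 ± 0.14 (adjusted p = 0.0214), and its call ended without GDF11 replicate 1, 2 or 3 (-0.57, -0.52 and -0.57), without control replicate 2 (-0.54), with RIN in the fit (-0.61) and on equal library sums (-0.40).

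The cyclin E genes, whose proteins bind CDK2, were not called. CCNE1 stood at 10.89, 10.82 and 10.77 in GDF11 libraries, against 10.71, 11.03 and 10.78 in controls. CCNE2 stood at 7.49, 7.23 and 7.41 in GDF11 libraries, against 7.45, 7.08 and 7.23 in controls. The groups overlapped in both genes. The differences were -0.01 ± 0.15 for CCNE1 (adjusted p = 0.961; 95% interval -0.35 to 0.32) and 0.12 ± 0.14 for CCNE2 (adjusted p = 0.575; 95% interval -0.21 to 0.45). These intervals do not reach the decrease of CDC25A, but the difference between genes was not tested.

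Members differed in how control replicate 3 sat beside the other controls, and the difference went with base composition. It was the lowest control in 17 members, the highest in 26 and in between in 12. Across the 55 genes, all from the same 6 libraries, the deviation of control replicate 3 from control replicates 1 and 2 had a Pearson r of -0.61 and a Spearman rho of -0.53 with the GC content of the transcript, and across all tested genes with a GC value the figures were -0.42 and -0.44. The log2 difference of GDF11 and control had r = -0.53 and rho = -0.47 with GC over the members, and -0.11 and -0.16 over all tested genes. CDT1, with 64.3% GC, was at -1.23 in control replicate 3 relative to control replicates 1 and 2, and RFC1, with 41.6%, at 0.67. Once each library's trend on GC and length was taken out, 48 members were called lower and 0 higher, against 16.6% of all tested genes called lower, and CDT1 stood at -2.09. Genes are not independent replicates, and these correlations describe the libraries.

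**Figure D3:**
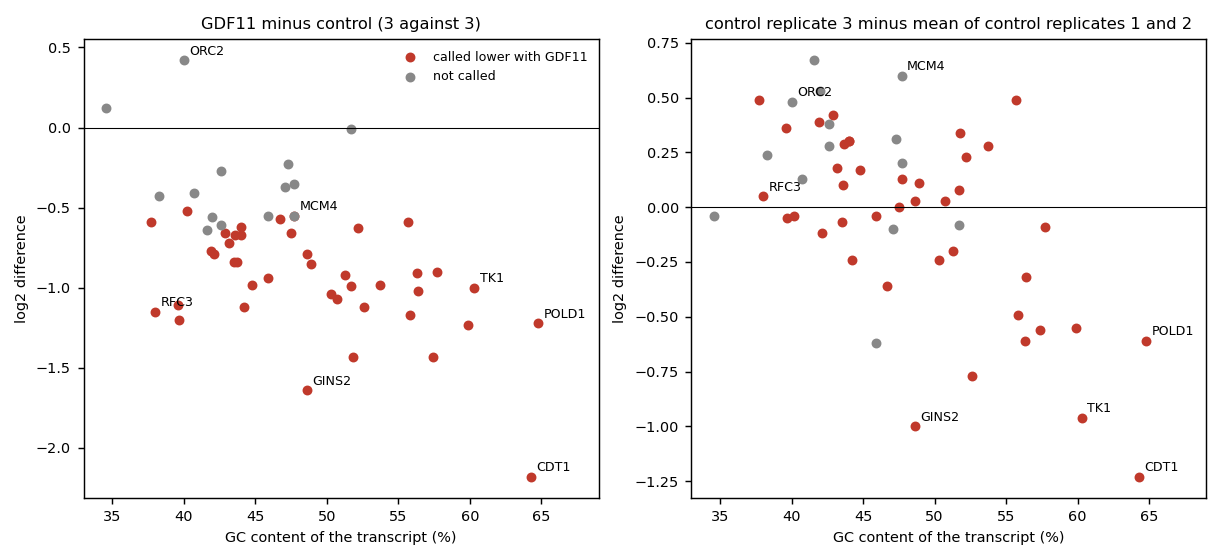
Log2 differences of the 55 members against the GC content of their transcripts (horizontal axis, percent). The left panel shows GDF11 minus control, 3 against 3, and the right panel control replicate 3 minus the mean of control replicates 1 and 2; red points were called lower with GDF11 and grey points were not. In the right panel CDT1, at 64.3% GC, lies at -1.23.

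The stability of the 41 calls varied between genes. Across 19 other settings at the same threshold, 18 members were called lower in each. They were the licensing genes CDT1, CDC6, ORC1 and ORC6, the ring subunits MCM2, MCM3 and MCM7, the polymerase genes PRIM1 and POLE2, the clamp genes PCNA, RFC3 and RFC5, the nucleotide genes RRM2, TYMS and UNG, the chromatin genes CHAF1A and CHAF1B, and CDC25A. No library among the 6, left out alone, ended the call of 25 of the 41, and the calls of the other 16 ended without at least 1.

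**Figure D4:**
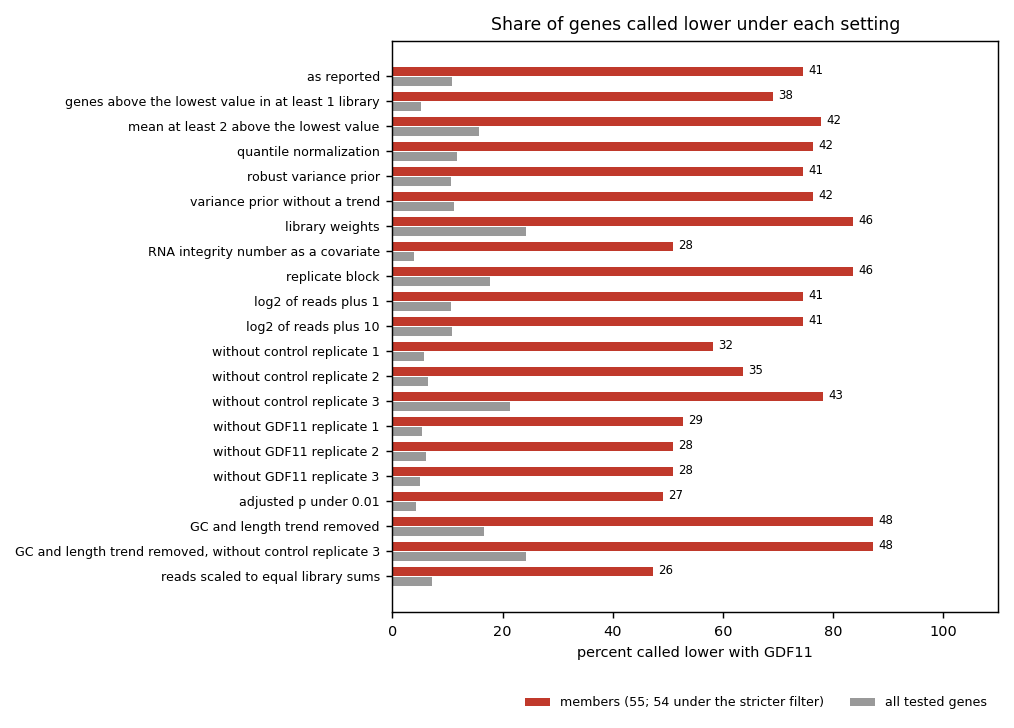
Percent of genes called lower with GDF11 (horizontal axis) under the reported analysis and each alternative (rows). Red bars are the replication and S-phase genes, with the number called at the bar end, and grey bars all tested genes. Members called lower ranged from 26, on reads scaled to equal library sums, to 48 with GC and length trends taken out.

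Genes next to this machinery were set beside it. Of all tested genes 10.8% were called lower and 11.7% higher. Other replication genes were lower in 16 of 34 cases (47.1%) and higher in 1 (2.94%). TICRR, which helps fire origins, fell by 1.04 ± 0.17 (adjusted p = 0.00291), PCLAF, a PCNA-binding protein gene, fell by 0.80 ± 0.14 (adjusted p = 0.00372) and the histone chaperone gene ASF1B fell by 1.05 ± 0.21 (adjusted p = 0.00823). POLD4, the smallest subunit of polymerase delta, was the 1 that rose: it stood at 11.10, 11.28 and 11.07 in GDF11 libraries, against 10.13, 10.24 and 9.56 in controls, a log2 difference of 1.17 ± 0.20 (adjusted p = 0.00350). The groups of POLD4 did not overlap, and its direction is opposite to that of POLD1. Of 19 other genes of nucleotide metabolism 8 fell (42.1%) and 2 rose (10.5%). The share that rose was near that of all tested genes. DTYMK, the kinase gene of thymidylate, fell by 1.13 ± 0.19 (adjusted p = 0.00353), IMPDH2 fell by 0.97 ± 0.20 and CTPS1 fell by 0.69 ± 0.14. The 2 that rose were TK2, by 0.66 ± 0.16 (adjusted p = 0.0186), and CTPS2, by 0.54 ± 0.16 (adjusted p = 0.0432). Neither was followed over the other settings. With RIN in the fit the calls of ASF1B (-0.46), DTYMK (-0.63), IMPDH2 (-0.46) and CTPS1 (-0.56) ended, and that of CTPS1 also without GDF11 replicate 3 (-0.61).

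Of 19 genes of E2F factors, pocket proteins and their partners, 7 fell (36.8%) and 1 rose (5.26%), against 10.8% and 11.7% of all tested genes. E2F1, an activating E2F factor, stood at 10.36, 10.38 and 10.13 in GDF11 libraries, against 11.85, 11.98 and 11.16 in controls. E2F2, a second activator, stood at 8.41, 8.44 and 8.30 in GDF11 libraries, against 9.70, 10.10 and 9.71 in controls. Every GDF11 library was below every control in both. E2F1 fell by 1.37 ± 0.22 (adjusted p = 0.00282) and E2F2 fell by 1.46 ± 0.16 (adjusted p = 0.000390). E2F3, the remaining activator of this class, was the 1 that rose. It stood at 10.37, 10.34 and 10.75 in GDF11 libraries, against 9.45, 9.14 and 10.06 in controls, without overlap, and rose by 0.93 ± 0.24 (adjusted p = 0.0243). The E2F3 call ended without GDF11 replicate 1 or 3 (0.99 and 0.80), without control replicate 1 or 2 (0.88 and 0.73) and with RIN in the fit (0.21). FOXM1, a factor of G2 and M genes, fell by 0.99 ± 0.17 (adjusted p = 0.00396), and TFDP1, the dimer partner of E2F, fell by 0.65 ± 0.14 (adjusted p = 0.0106). The calls of E2F1 (-0.75), FOXM1 (-0.61) and TFDP1 (-0.61) ended with RIN in the fit, and that of TFDP1 also without GDF11 replicate 1, 2 or 3 (-0.68, -0.63 and -0.65) and on equal library sums (-0.48).

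A list of CDK inhibitors, D-type cyclins, their kinases and other cell cycle regulators had 4 of 16 tested genes higher and 6 lower. The higher genes of the list were the inhibitor genes CDKN2B and CDKN1A and the cyclin genes CCND1 and CCND2. The lower ones were the inhibitor gene CDKN2C, the kinase gene CDK4, the phosphatase genes CDC25B and CDC25C, SKP2 and MYC. CDKN2B, which encodes the CDK4 and CDK6 inhibitor p15 and is a known TGF-beta target, stood at 9.93, 9.97 and 10.20 in GDF11 libraries, against 6.45, 6.62 and 7.11 in controls. It rose by 3.31 ± 0.19 (adjusted p = 1.44e-05) on the deposited scale, which shrinks the change of a gene this low in controls. On back-transformed values CDKN2B had 887, 910 and 1089 normalised reads with GDF11 and 20, 28 and 62 in controls. CDKN1A, for the inhibitor p21, rose by 1.01 ± 0.16 (adjusted p = 0.00242), as did CCND2, a D-type cyclin gene, by 2.32 ± 0.16 (adjusted p = 3.13e-05). SKP2, the ligase subunit that targets p27, fell by 1.41 ± 0.16 (adjusted p = 0.000436), and CDKN1B, for p27, was not called at -0.27 ± 0.18 (adjusted p = 0.299), but was called lower with RIN in the fit (-0.71). CDKN2C, for the CDK4 and CDK6 inhibitor p18, fell by 0.78 ± 0.15 (adjusted p = 0.00677), a call lost with RIN in the fit (-0.68). CDK4 stood at 0.47 of its control reads (adjusted p = 0.0111), CDC25B at 0.48 (adjusted p = 0.0147) and CDC25C at 0.50 (adjusted p = 0.00406). All 3 calls ended with RIN in the fit (log2 differences of -0.45, -0.36 and -0.59 for CDK4, CDC25B and CDC25C). The calls of CDK4 and CDC25B also ended without GDF11 replicate 3 (-0.95 and -0.88) or control replicate 1 (-0.94 and -0.90), and that of CDC25B without control replicate 2 (-0.85).

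MYC, a growth factor-responsive transcription factor gene, fell by 0.81 ± 0.20 (adjusted p = 0.0213) and CCND1, for cyclin D1, rose by 0.68 ± 0.21 (adjusted p = 0.0495). Both calls were fragile. That of MYC ended without GDF11 replicate 1, 2 or 3 (-0.76, -0.83 and -0.85), without control replicate 2 (-0.82), with quantile normalization (-0.70) and on equal library sums (-0.64). That of CCND1 ended without GDF11 replicate 1, 2 or 3 (0.74, 0.74 and 0.55), without control replicate 1 or 2 (0.61 and 0.54), under the most lenient filter (0.68), on a log2 scale of reads plus 1 (0.68), on equal library sums (0.87) and with RIN in the fit (0.09).

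Mitotic genes were lower in 18 of 30 cases (60.0%, against 10.8% of all tested genes) and higher in 0. Their median was -0.65, beside -0.79 for the replication genes. The difference between these groups of genes was not tested. MAD2L1, of the spindle checkpoint, fell by 1.18 ± 0.15 (adjusted p = 0.000940), CCNA2, the cyclin of S phase and G2, fell by 1.02 ± 0.14 (adjusted p = 0.00133), BIRC5, for the mitotic passenger protein survivin, fell by 1.12 ± 0.17 (adjusted p = 0.00207) and the kinase gene AURKA fell by 0.85 ± 0.13 (adjusted p = 0.00254). AURKA stood at 12.42, 12.36 and 12.37 in GDF11 libraries, against 13.24, 13.20 and 13.25 in controls, with hardly any spread within a group.

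**Figure D5:**
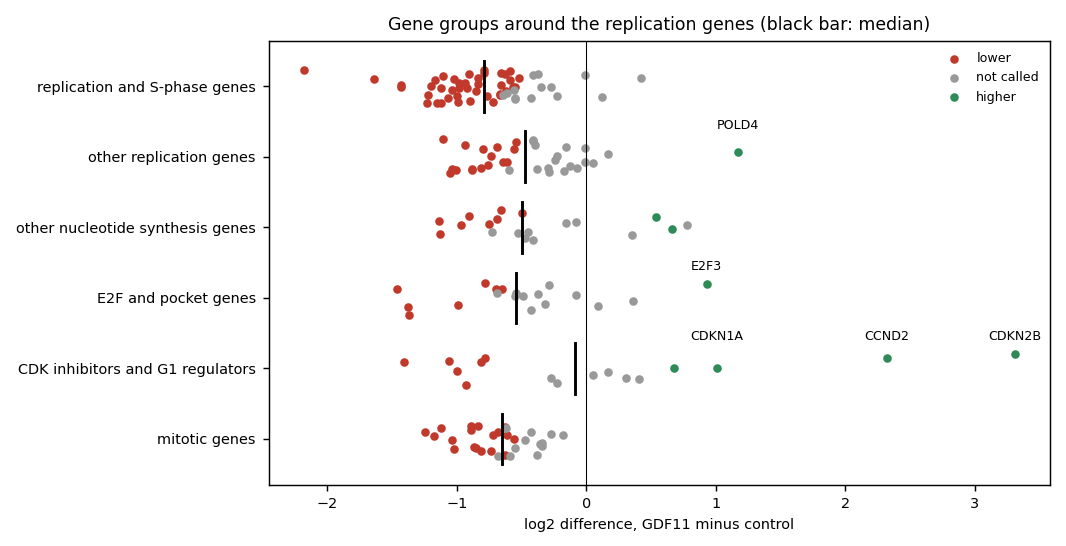
Log2 difference of GDF11 and control (horizontal axis) for the genes of 6 groups (rows), 1 point per tested gene; red was called lower, grey not called and green higher, and the black bar is the median. Replication and S-phase genes have a median of -0.79, and CDKN2B at 3.31 is farthest to the right.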

How the data were processed

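Total RNA of 3 GDF11 and 3 control HepG2 cultures was sequenced as single reads of 75 bases from directional libraries, per the labels' protocols. The authors deposited 1 table of log2 values, named as variance-stabilised. The submitters' processing notes name Trimmomatic, Salmon 1.2.1, DESeq2 and GRCh38, while the labels' protocol names STAR 2.6 and hg19. No source used here says which of these made the table. The labels' protocols also name a MiSeq, and say nothing of how its output relates to the estimated depth.

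Symbols were matched for 96.9% of the IDs. Genes entered the test with a mean at least 0.5 above the lowest value, and limma 3.58.1 in R 4.3.3 (lmFit, eBayes with a mean trend, no covariate) was fitted to all 6 libraries, with Benjamini-Hochberg adjustment over 18723 genes. The fit was tested on simulated data with independent noise in each gene and library, which does not cover shifts shared by the genes of a library. The curve was inverted to give normalised reads; within 0.01, whole reads came out for 71.0% to 74.2% of values up to 20 reads, so no count test was run. Transcript GC and length came from GENCODE v44 on GRCh37, for 99.1% of tested genes, and positions and promoters from RefSeq GRCh38.p14, by symbol.

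Alternatives were other filters, quantile normalization, robust or untrended variance priors, library weights, RIN as a covariate, a replicate block, log2 of reads plus 1 or 10, each library left out, a stricter threshold, GC and length trends taken out, and reads scaled to equal library sums.

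The members, their roles and the other lists were chosen with earlier results of these data known. Every member may be named; of the other lists up to 4 called genes with the lowest p are named (1 of these is not reported here), plus E2F1, CDKN1A, CDKN1B, CDKN2B, MYC and CCND1. LYZ, HBA1, E2F3, CDKN2C, CDK4, CDC25B, CDC25C, TK2, CTPS2, ORC3, ORC4, ORC5 and the overlapping genes were named after their values were seen. Standard errors are limma's moderated ones. The p-values set each difference against the spread between these libraries, moderated over all tested genes.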

Additional observations from a re-analysis of the deposited data

How the results depend on the processing

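Over 19 alternatives at the same threshold no called member was called in the other direction, and 18 of 41 calls were kept in each. Members called lower numbered 27 at an adjusted p under 0.01 and 26 on reads scaled to equal library sums, and from 28 to 43 when 1 library was left out. The shares of all tested genes called lower there were 4.22%, 7.19% and from 5.06% to 21.3%, in the same order. The number called higher was 1 with library weights and 1 with GC and length trends taken out and control replicate 3 dropped, and from 0 to 1 when 1 library was left out; the gene was ORC2 each time. The median was -0.71 with quantile normalization, -0.61 on equal library sums and -0.82 to -0.74 when 1 library was left out. The cause of these shifts was not tested. The RNA integrity number left 28 members lower. Of the genes in all, 3990 were lower and 3673 higher without control replicate 3, against 2017 and 2185 as reported, 721 and 1149 with the RNA integrity number, 1347 and 2389 on equal library sums, and 4554 and 4473 with library weights.

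With the replicate number as a block (replicate block) 46 members were lower, 0 higher and the median was -0.79. Calls over all tested genes rose as well, to 17.7% lower and 16.8% higher, against 10.8% and 11.7% without the block. MCM8 (-0.56), RFC1 (-0.64), RPA3 (-0.55), RRM1 (-0.61) and TIPIN (-0.41) gained a call with the block. Same-numbered libraries had deviations from their group means correlated at -0.09, 0.38 and 0.48 for numbers 1, 2 and 3. GDF11 replicates 2 and 3 correlated best with the control of their own number, and GDF11 replicate 1 with control replicate 2 (0.15). Deviations from a mean of 3 libraries are not independent, so these values cannot decide whether the numbers pair the libraries. Taking out GC and length trends, with or without control replicate 3, and equal library sums were chosen after seeing the data.

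The 3 libraries of a group limit precision: in an exact permutation test of 1 gene the smallest p that 3 against 3 allow is 0.1. At values near 8 the scale compresses differences, which touches CCNE2, CDC7, POLE2 and TIPIN most.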
